A study of Mus musculus with 69 samples.

Results

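The comparison set the livers of 21 Rapa females against those of 16 control females, which together give 37 of the 69 arrays of the series. The arrays were taken by animal code, F626 to F649 for the Rapa females and F651 to F695 for the control females, and no measured value entered the choice. All were C57BL6/J females aged 25 months. From 4 months of age, for 21 months, the Rapa females ate chow that carried 14 ppm of rapamycin in Eudragit capsules, and the control females ate the same chow with Eudragit capsules alone. The mice were killed in the morning without fasting, and each array holds the total RNA of a single liver.

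Rapamycin binds the small immunophilin FKBP12, and the pair blocks mTORC1, the kinase complex that matches protein synthesis, ribosome production and autophagy to nutrients and growth factors. The liver is a nutrient-sensing and secretory organ. Hepatocytes export plasma proteins through the endoplasmic reticulum and the Golgi, break down amino acids, store and release glucose, and clear drugs and hormones, while Kupffer cells, sinusoidal endothelium, stellate cells and blood cells make up the rest of the RNA. In whole liver, fewer cells of a type and less RNA per cell cannot be told apart.

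The arrays of the diets differed in a measure of the array itself. The share of probes detected above background ran from 37.1% through a median of 39.5% to 42.5% on Rapa female arrays, and from 40.4% through 43.5% to 47.4% on control female arrays. Most Rapa arrays lay below most control arrays, with an overlap between about 40% and 42%. The means were 39.9 ± 1.31% (SD, n = 21) and 43.6 ± 1.87% (n = 16), a difference of -3.79 percentage points (permutation test, two-sided, p = 2e-05, the smallest these resamples can give, adjusted p = 6e-05 over 3 measures). The signal at which the brightest 0.1% of probes begin was 23629 ± 3858 on Rapa and 27751 ± 2546 on control arrays (adjusted p = 0.00042), whereas the raw median signal was 102 ± 7.26 and 104 ± 7.85 (adjusted p = 0.384). The animal numbers of the diets do not interleave, and the control females fall into 2 runs of numbers, F651 to F659 (n = 7) and F682 to F695 (n = 9). If numbers follow the order of housing or processing, that order and the diet cannot be told apart.

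The first principal component of all tested transcripts held 37.7% of the variance. Scores ran from -14.4 through a median of 16.3 to 26.3 in Rapa females and from -54.3 through -16.5 to 6.6 in control females, with medians of -26.3 and -6.9 in the control runs F651 to F659 and F682 to F695. The component thus set most Rapa arrays apart from most control arrays. Within a diet it also moved with the detected share. Pearson's r was -0.40 over the 21 Rapa arrays (permutation p = 0.0725, adjusted over the 2 diets 0.0725; Spearman's rho -0.35, permutation p = 0.124) and -0.81 over the 16 control arrays (permutation p = 0.00014, adjusted 0.00028; rho -0.75, permutation p = 0.00124). Without the 2 arrays of most extreme detected share, r was -0.18 in Rapa and -0.66 in control females, so the relation held in control females and was not shown in Rapa females.

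**Figure D1:**
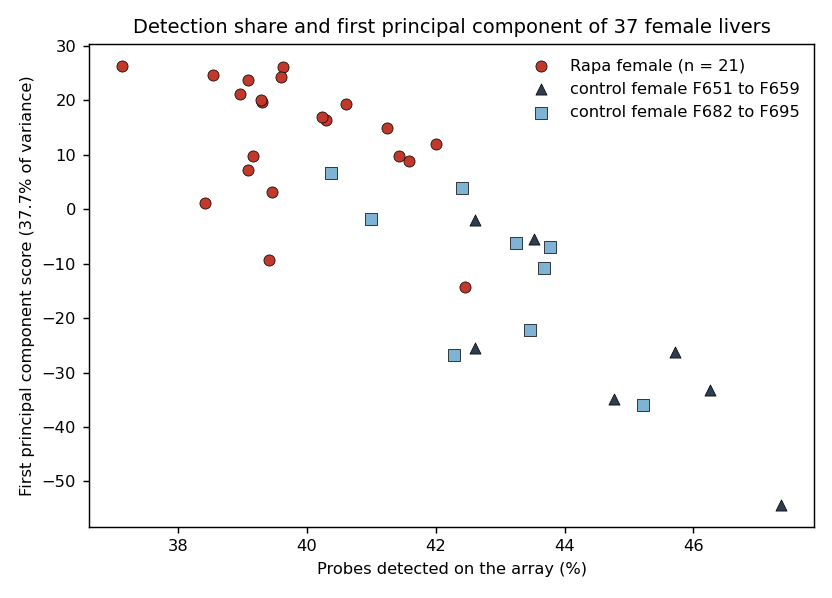
The share of probes detected on each array (percent, horizontal) is plotted against its score on the first principal component (vertical, 37.7% of the variance), with circles for Rapa females, triangles for control females F651 to F659 and squares for control females F682 to F695. Rapa arrays detected fewer probes (median 39.5%, against 43.5% in control arrays) and scored higher (median 16.3, against -16.5).

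Of 12442 tested transcripts, 4782 passed, which is 38.4% (the thresholds were an adjusted p of 0.05 and a change of 15%). They were spread over both directions, 2483 higher (20.0% of those tested) and 2299 lower (18.5%) in Rapa females. The changes were mostly small. The median passing transcript that was higher stood at a log2 difference of 0.31 and the median lower one at -0.39, and 126 transcripts (1.01%) passed by over 2-fold, 13 of them higher and 113 lower. Detection differed with direction: 151 transcripts that were lower were detected on all 16 control arrays but on less than 50% of the Rapa arrays, and no transcript that was higher had the opposite pattern. In a count that overlaps the 151, 126 lower transcripts were detected on no Rapa array, so that their differences are bounds and not sizes.

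Directions were relative to the scaling of the arrays. The median log2 difference of all tested transcripts was 0.03 after quantile normalization, -0.20 when each array was scaled to the median of all probes, 0.21 when it was scaled to the probes detected on all arrays, and -0.23 without scaling. With these scalings 1.33%, 80.9% and 0.726% of the passing transcripts were higher, against 51.9% after quantile normalization. Measured against the median transcript, most calls did not change with the choice: 2357 of the 2483 higher and 2268 of the 2299 lower transcripts kept their side of that median under all 7 scalings. Only 3 of these are distinct for this count, since scaling to either median and no scaling give nearly the same values relative to the median transcript, and both quantile normalizations and the deposited processed values are near copies of each other. The third is background correction. The runs of control females were also taken alone. Each is part of the control group and was set against the same Rapa arrays, so some agreement is built in. Against F651 to F659 alone, 4462 of the 4782 passed in the same direction, against F682 to F695 alone 3482 did, and 3209 passed against both. With the detected share as a covariate 1343 of them still passed, 405 of the higher and 938 of the lower ones, and 1221, 866 of them lower, met all of these conditions together. The detected share itself differed between the diets. The fit with this covariate therefore estimates the diet difference less precisely, and it takes up any diet effect on detection. A transcript that does not pass it is not thereby shown to be technical.

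The transcripts that rose most steadily included genes of secretory traffic and of transcription elongation. Ranked by the moderated statistic, the 12 leading genes were Fam234a, Sec24c, Nelfcd, Ap2a2, Nomo1, Tti1, Gid8, Ppp2r5d, Ergic3, Fibp, Zmiz2 and Nelfb. Each was detected on all 37 arrays, and all passed against both control runs and with the detected share as a covariate. Under scaling to the array median they remained above the median transcript, by 0.22 to 0.52 on the log2 scale.

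Sec24c encodes the cargo-binding subunit of the COPII coat, which carries new proteins out of the endoplasmic reticulum. Its signal, as normalized log2 values here and below, ran from 9.39 through a median of 9.75 to 9.95 in Rapa females and from 8.67 through 9.18 to 9.29 in control females. Every Rapa liver lay above every control liver, by a mean log2 difference of 0.60 ± 0.05 (SE; adjusted p = 2e-11). Ergic3, a protein of the compartment between the endoplasmic reticulum and the Golgi, ran from 10.16 through 10.63 to 11.00 in Rapa and from 9.48 through 9.94 to 10.16 in control females, a difference of 0.69 ± 0.07 (adjusted p = 1.25e-10). The groups met without crossing, at 10.16. Nomo1, which sits in the endoplasmic reticulum membrane beside the translocon, had the largest difference of the 12, 0.75 ± 0.07 (9.15, 9.46 and 9.87 as lowest, median and highest in Rapa females, 8.28, 8.74 and 9.18 in control females; adjusted p = 7.59e-11), and 20 of 21 Rapa livers exceeded all controls.

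Nelfb and Nelfcd encode subunits of the negative elongation factor, which holds RNA polymerase II shortly after the start of transcription. Nelfb ran from 8.29 through 8.46 to 8.67 in Rapa females and from 7.55 through 7.92 to 8.28 in control females (0.53 ± 0.05, adjusted p = 1.69e-10), with no overlap. Nelfcd ran from 8.48 through 8.99 to 9.30 in Rapa and from 7.96 through 8.37 to 8.64 in control females (0.60 ± 0.06, adjusted p = 7.25e-11), with a narrow overlap. Tti1, a subunit of the complex that stabilizes mTOR and related kinases, was higher by 0.40 ± 0.04 (adjusted p = 8.21e-11). Ppp2r5d, a regulatory subunit of protein phosphatase 2A, was higher by 0.51 ± 0.05 (0.37 and 0.09 on other probes), Gid8, a subunit of the CTLH ubiquitin ligase, by 0.53 ± 0.05, and Ap2a2, of the clathrin adaptor at the plasma membrane, by 0.48 ± 0.05 (adjusted p = 9.78e-11, 9.45e-11 and 7.46e-11). Fam234a had the highest statistic, with 9.23, 9.46 and 9.63 in Rapa females and 8.81, 9.01 and 9.11 in control females (0.46 ± 0.04, adjusted p = 1.74e-11), a change of 1.38-fold that separated every animal of the diets.

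The 12 genes with the lowest statistic were Bhlhe40, Zfand3, Ppp1cb, Alcam, Slain2, Irf2, Nit1, Tmem230, Fyco1, Ptprb, Uhrf1bp1l and Coa6. Their log2 differences ran from -1.32 to -0.71, against 0.40 to 0.75 for the 12 leading increases. All passed against both control runs and with the detected share as a covariate, and they stayed below the median transcript under every scaling. Bhlhe40, a transcriptional repressor with a role in circadian timing, ran from 7.51 through 7.81 to 8.57 in Rapa females and from 8.73 through 9.19 to 9.53 in control females, without overlap (-1.27 ± 0.09, adjusted p = 4.04e-13). Its difference was -1.29 against the controls F651 to F659, -1.25 against F682 to F695 and -1.14 with the detected share as a covariate, so that it moved little with any of these. Irf2 encodes a transcription factor of interferon-responsive promoters. It ran from 9.41 through 9.71 to 10.51 in Rapa females and from 10.66 through 11.06 to 11.73 in control females, without overlap (-1.32 ± 0.10, adjusted p = 4.65e-12). The difference was -1.58 against the controls F651 to F659, -1.12 against F682 to F695 and -0.84 with the detected share as a covariate. Zfand3, a zinc finger protein, ran from 9.79 through 9.95 to 10.62 in Rapa and from 10.61 through 11.00 to 11.40 in control females, with a narrow overlap (-0.96 ± 0.07, adjusted p = 4.29e-13).

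Alcam, a cell adhesion molecule of the immunoglobulin family, ran from 6.41 through 6.70 to 7.18 in Rapa females and from 7.27 through 7.62 to 7.88 in control females (-0.88 ± 0.07, adjusted p = 1.03e-12). It was detected on 3 of 21 Rapa arrays and on 16 of 16 control arrays, so that its difference is compressed by the background. The same held for Ppp1cb, a catalytic subunit of protein phosphatase 1 (-0.92 ± 0.07, detected on 7 Rapa and 16 control arrays), Fyco1, which links autophagosomes and late endosomes to microtubule motors (-0.71 ± 0.06, 1 and 15 arrays), and Slain2, a microtubule plus-end protein (-0.79 ± 0.06, 8 and 16 arrays). Ptprb, the receptor phosphatase of endothelial cells, ran from 6.79 through 7.10 to 7.81 in Rapa and from 7.61 through 8.38 to 8.85 in control females (-1.21 ± 0.10, adjusted p = 6.75e-12). Of the mitochondrial genes, Nit1, an amidase, was lower by a log2 difference of -1.06 ± 0.09 and Coa6, an assembly factor of cytochrome c oxidase, of -1.17 ± 0.10 (adjusted p = 6.66e-12 and 1.07e-11).

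**Figure D2:**
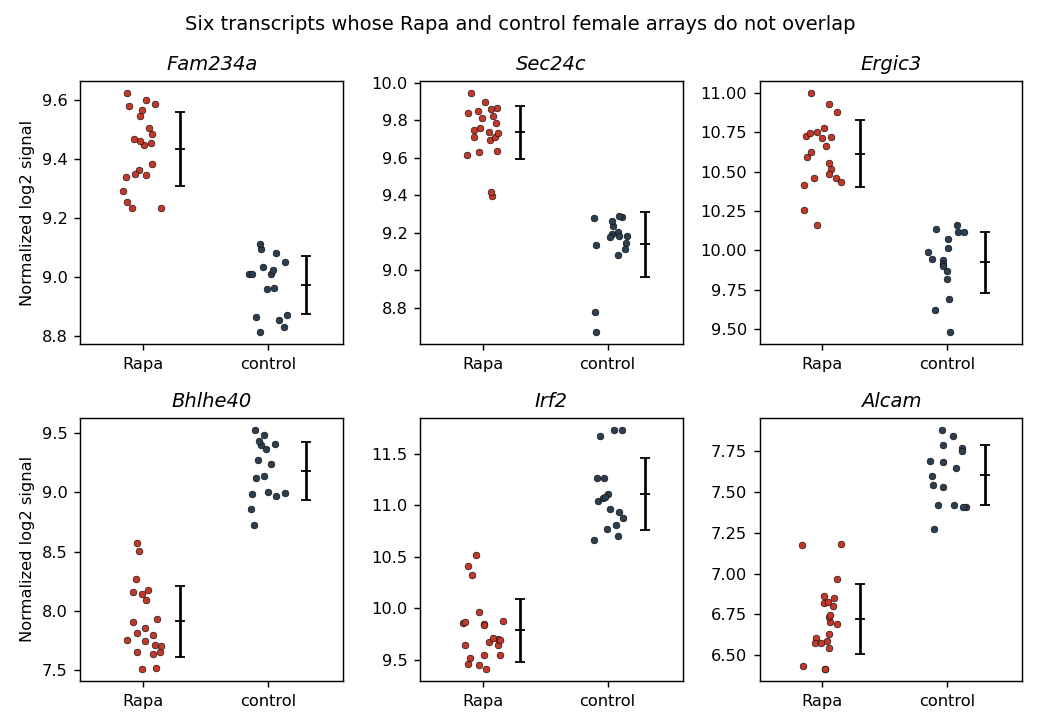
Normalized log2 signals (vertical) of Fam234a, Sec24c, Ergic3, Bhlhe40, Irf2 and Alcam, with 1 point for each liver and Rapa females left of control females. Dashes with bars give the mean and SD (n = 21 and 16). All Rapa points lie above the control points for the first 3 genes, with differences of 0.46, 0.60 and 0.69, and below them for the other 3, with differences of -1.27, -1.32 and -0.88.

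In all, 61 transcripts separated every Rapa female from every control female, 26 with all Rapa arrays above (0.209% of those tested) and 35 with all below (0.281%). The median log2 difference was 0.54 among the 26 and -0.75 among the 35. The counts did not change on the deposited processed values, on signals normalized over the female arrays alone or after background correction. They did change with scaling: 88 transcripts separated the groups after scaling to the array median, none of them above, and 41 after scaling to the commonly detected probes, 25 above and 16 below. The genes named next were picked after their values were seen.

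Some transcripts with every Rapa liver above act on chromatin, RNA or intracellular transport. They were Trim28, the corepressor of KRAB zinc finger proteins (0.44 ± 0.05), Mbd3, a subunit of the NuRD remodelling complex (0.58 ± 0.06), Rbbp5, a core subunit of histone H3 lysine 4 methyltransferases (0.33 ± 0.04), Banf1, which tethers chromatin to the nuclear envelope (0.71 ± 0.07), Prpf19, an ubiquitin ligase of the spliceosome (0.62 ± 0.06), and Dctn3, a subunit of dynactin (0.65 ± 0.07). Adjusted p lay between 4.44e-11 and 1.86e-09. For Banf1, Prpf19 and Dctn3 these are the probes that separated the groups, and their brightest probes gave 0.56, 0.53 and 0.23, the last at -0.02 relative to the median transcript after scaling to the array median. With the detected share as a covariate, the adjusted p of the brightest probe was 0.189 for Dctn3 and at most 0.00895 for the others. Sar1a, the GTPase that starts assembly of the COPII coat, joined Sec24c and Ergic3 with 0.57 ± 0.06, and Ddit3, a transcription factor of the endoplasmic reticulum stress response, stood at 0.60 ± 0.07 on its brightest probe and at 0.11 on another.

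Among transcripts with every Rapa liver below, RNA-binding and splicing proteins were U2surp (-1.02 ± 0.09), both probes of Mbnl2 (-0.98 ± 0.08 and -0.85 ± 0.10) and the splicing kinase Clk4 (-0.63 ± 0.07). Bckdhb, a subunit of the dehydrogenase that commits branched-chain amino acids to breakdown, ran from 8.21 through 8.54 to 8.95 in Rapa females and from 8.98 through 9.45 to 10.20 in control females (-0.94 ± 0.09, adjusted p = 5.44e-11). Bach1, a repressor of heme oxygenase and other antioxidant genes, was lower by a log2 difference of -0.81 ± 0.08, Bnip3l, a receptor for the removal of mitochondria by autophagy, of -0.75 ± 0.09, Eif4enif1, the transporter of the cap-binding factor eIF4E, of -0.74 ± 0.07, and Zmpste24, the protease that matures lamin A, of -0.64 ± 0.06. Il18, a cytokine of macrophages, was lower by a log2 difference of -0.71 ± 0.10. The other probes of Eif4enif1, U2surp and Zmpste24 gave 0.15, -0.16, and -0.10 and -0.04, all short of the minimum change. Bnip3l and Il18 did not pass with the detected share as a covariate (adjusted p = 0.0568 and 0.173). Selenop, the plasma carrier of selenium, stood at -1.16 ± 0.07 on the probe that separated the groups.

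Promoter windows were found for 10 of the 12 leading increases. In 2 of the 10, those of Sec24c and Fibp, the letters CCGGAAGT, the core of sites for ETS-family transcription factors, stand at 2 places, and these are shown as the ones that hold the letters. Fam234a, Ergic3 and Nelfb, which also separated all animals, have windows without them. Tmem230, an endosomal membrane protein that was lower (-0.78 ± 0.06, adjusted p = 6.75e-12), holds the letters once, as the only one of the 9 of the 12 lowest genes with a window, and is shown beside them. Fibp, an intracellular partner of fibroblast growth factor 1, was higher by 0.54 ± 0.05 (adjusted p = 1.44e-10), with 8.64, 8.94 and 9.26 in Rapa and 8.03, 8.4 and 8.61 in control females. The sequences are RefSeq windows of 300 bases on GRCm38.p6, from 250 bases before to 50 after the annotated start of transcription, written 5′ to 3′ on the strand of the gene. Capitals mark CCGGAAGT or its reverse complement ACTTCCGG. Sec24c lies at chr14:20674071-20674370 (plus strand), Fibp at chr19:5460357-5460656 (plus strand) and Tmem230 at chr2:132247739-132248038 (minus strand).
Sec24c: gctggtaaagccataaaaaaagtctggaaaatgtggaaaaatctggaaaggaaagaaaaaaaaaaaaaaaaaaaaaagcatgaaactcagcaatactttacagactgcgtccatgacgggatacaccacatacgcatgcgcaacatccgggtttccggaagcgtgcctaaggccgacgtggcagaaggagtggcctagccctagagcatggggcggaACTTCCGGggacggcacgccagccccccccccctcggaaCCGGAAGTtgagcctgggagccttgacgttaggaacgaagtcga
Fibp: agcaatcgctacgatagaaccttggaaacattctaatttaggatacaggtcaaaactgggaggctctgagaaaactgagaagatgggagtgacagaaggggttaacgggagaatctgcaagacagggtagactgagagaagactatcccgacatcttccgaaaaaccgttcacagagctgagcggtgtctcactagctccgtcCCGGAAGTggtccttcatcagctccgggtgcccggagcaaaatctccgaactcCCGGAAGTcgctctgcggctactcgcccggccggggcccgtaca
Tmem230: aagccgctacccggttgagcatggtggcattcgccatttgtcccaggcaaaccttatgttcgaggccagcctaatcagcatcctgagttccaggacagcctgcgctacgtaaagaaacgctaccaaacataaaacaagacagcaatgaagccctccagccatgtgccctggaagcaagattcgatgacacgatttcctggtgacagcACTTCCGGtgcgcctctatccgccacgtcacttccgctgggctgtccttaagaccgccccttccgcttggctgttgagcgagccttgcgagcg

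Over all matched windows, CCGGAAGT on either strand was found in 10.7% of 1884 promoters of genes that were higher, 6.83% of 1683 of genes that were lower, 6.58% of 5590 of tested genes that did not pass, and 3.89% of all 32851 windows. A gene may have several windows, and 7117 of the 8729 represented genes (81.5%) had at least 1. Of the 9 other motifs searched on both strands, the E-box CACGTG was found in 10.9%, 9.09% and 9.70% of windows of higher, lower and other tested genes, the cyclic AMP response element TGACGTCA in 3.4%, 2.26% and 2.74%, the GC box GGGCGGG in 45.6%, 46.0% and 42.9%, the CCAAT box in 40.0%, 38.4% and 36.8%, the TATA box TATAAA in 7.27%, 9.03% and 8.37%, the AP-1 site TGACTCA in 3.29%, 4.04% and 4.72%, the nuclear receptor motif AGGTCA in 15.0%, 12.6% and 13.1%, GATAAG in 5.10%, 5.29% and 5.65%, and the STAT-type site TTCNNNGAA in 6.90%, 7.31% and 6.98%. The ETS-family letters thus showed the widest gap between higher and lower genes relative to their share, with the cyclic AMP response element close behind. The groups were not matched for signal or span, with which the share of higher genes also varied (below). These shares describe letters in windows, without a test, and a match is not a bound site.

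The largest changes differed in how steady they were. The 8 largest increases all overlapped with the control range, and none passed with the detected share as a covariate. Among the 8 largest decreases, Igfbp7, Retreg1 and Tax1bp1 passed with it (adjusted p = 0.000359, 0.00803 and 0.00176), with 20, 20 and 19 of 21 Rapa livers below all controls, and the other 5 did not. The 8 largest increases by log2 difference included Cyp2b13 (2.23 ± 0.65), G0s2 (1.49 ± 0.34) and, below these, Cyp4a31, a fatty acid omega-hydroxylase. Cyp4a31 ran from 6.79 through 10.63 to 11.85 in Rapa females and from 6.94 through 9.31 to 11.36 in control females (1.11 ± 0.47, adjusted p = 0.0439). Its difference was 1.88 against the controls F651 to F659 (adjusted p = 0.00636) and 0.51 against F682 to F695 (adjusted p = 0.459). The ranges covered each other, and 4 of 21 Rapa livers exceeded all controls. Gpcpd1, a glycerophosphocholine phosphodiesterase, was among the leading decreases, with 7.58, 8.10 and 9.42 in Rapa and 8.83, 9.46 and 12.71 in control females (-1.50 ± 0.24, adjusted p = 1.75e-06). Here 19 of 21 Rapa livers lay below all controls. Neither passed with the detected share as a covariate (0.39, adjusted p = 0.784, and -0.89, adjusted p = 0.0913). Tubb2b, a beta-tubulin, combined size and separation, with 10.27, 11.33 and 11.95 in Rapa and 8.66, 10.36 and 11.07 in control females (1.05 ± 0.17, adjusted p = 2.18e-06), and 16 of 21 Rapa livers exceeded all controls. Its difference with the detected share as a covariate was 0.68 (adjusted p = 0.0703), and its 3 other tested probes stood between -0.12 and 0.05.

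Gene lists were described on 1 probe a gene, where 19.4% of 8729 genes passed and were higher and 18.5% passed and were lower. Most lists held members of both directions. The lists of secretion did so too. Of 37 coat proteins of endoplasmic reticulum and Golgi vesicles 9 were higher (24.3%) and 11 lower (29.7%). With the detected share as a covariate 3 of the 9 and 5 of the 11 passed. Of 21 subunits of the translocon, the signal recognition particle and signal peptidase 4 were higher (19.0%) and 8 lower (38.1%), of which 2 and 4 passed with the covariate. Beside Sec24c and Sar1a, which were higher, Sec16b, a scaffold of COPII exit sites, ran from 7.57 through 8.03 to 8.85 in Rapa females and from 8.22 through 8.96 to 9.58 in control females (-0.83 ± 0.10, adjusted p = 5.15e-09). Copb2, of the COPI coat, stood at -0.56 ± 0.06. In the signal recognition particle, Srp68 was higher (0.31 ± 0.03, adjusted p = 2.51e-09) while its Alu-domain partners Srp14 and Srp9 were lower (-0.79 ± 0.07 and -0.72 ± 0.07, adjusted p = 4.35e-11 and 5.88e-10). Of 13 protein disulphide isomerases and lectins, 5 were higher (38.5%), among them Fkbp2 (0.49 ± 0.06, with another probe at 0.17), and 3 lower (23.1%).

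The lists of translation differed in the shares of members that passed each way without a covariate. Of 29 tRNA synthetases and their cofactors, 8 were higher and none was lower at the thresholds (27.6% and 0%, median log2 difference 0.02), and 1 of the 8 passed with the detected share as a covariate. The list's median was -0.01 relative to the median transcript, and -0.08 after scaling to the array median. They included Sars, the cytosolic seryl-tRNA synthetase (8.07, 8.46 and 8.73 in Rapa, 7.95, 8.07 and 8.31 in control females, 0.36 ± 0.05, adjusted p = 4.07e-08, with its other probe at -0.16), and Aimp2, a scaffold of the synthetase complex (0.39 ± 0.06, adjusted p = 4.84e-07). Of 13 genes listed as elongation and release factors 5 were higher and 1 lower (38.5% and 7.69%, median 0.18). With the detected share as a covariate 1 of the 5 passed and the lower one did not. The list holds Eef1akmt1, a methyltransferase of elongation factor 1 (0.62 ± 0.09), beside factors such as Tufm, the mitochondrial elongation factor, at 0.39 ± 0.06. The one that was lower, Eef1e1 (-0.34 ± 0.05), serves the synthetase complex. Of 68 mitochondrial ribosomal proteins 30 were higher (44.1%) and 11 lower (16.2%, median 0.15), from Mrpl11 (0.49 ± 0.07, adjusted p = 8.24e-08) to Mrpl52 (-0.77 ± 0.08, adjusted p = 1e-09). Relative to the median transcript this median was 0.12 after quantile normalization but -0.06 under both median scalings, and with the detected share as a covariate 2 of the 30 and 7 of the 11 passed. Of 55 cytosolic ribosomal proteins 6 were higher and 20 lower (36.4%), of which 2 and 6 passed with the covariate, with Rpl35a at -1.18 ± 0.11 and Rpl37a at -0.87 ± 0.09 (adjusted p = 7.19e-11 and 4.3e-10).

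The lists of transcription and RNA processing held members of both directions, as most lists did at background shares of 19.4% higher and 18.5% lower. Of 24 Mediator subunits, which join transcription factors to RNA polymerase II, 9 were higher (37.5%) and 6 lower (25.0%). Of 17 RNA polymerase subunits 5 were higher (29.4%) and 3 lower (17.6%). Med8 ran from 9.45 through 9.78 to 10.10 in Rapa females and from 8.69 through 9.26 to 9.64 in control females (0.54 ± 0.06, adjusted p = 8.35e-09), though another probe of it stood at -0.45. Med7 was lower (-0.52 ± 0.06, adjusted p = 1.96e-08). Polr2e, a subunit shared by all 3 nuclear polymerases, was higher by 0.56 ± 0.06, and Polr3k, of RNA polymerase III, lower at -0.58 ± 0.06 (adjusted p = 1.84e-09 and 9.25e-10). Of 45 splicing factors 11 were higher (24.4%) and 7 lower (15.6%), near the background. Of 42 histones 2 were higher (4.76%) and 9 lower (21.4%). The decreases were led by H3f3b, a replication-independent histone H3, which ran from 9.26 through 9.51 to 10.88 in Rapa females and from 10.55 through 10.84 to 12.14 in control females (-1.27 ± 0.13, adjusted p = 4.8e-10). Hdac2, a class I histone deacetylase, stood at -1.07 ± 0.10 (adjusted p = 4.87e-11), with 19 of 21 Rapa livers below all controls.

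In protein turnover, 8 of 33 proteasome subunits were higher (24.2%), none by more than 0.29, and 7 were lower (21.2%), near the shares over all genes. Psma3, an alpha-ring subunit, stood apart from the others, with 10.60, 11.06 and 11.57 in Rapa females and 11.51, 12.06 and 12.57 in control females (-1.03 ± 0.09, adjusted p = 3.43e-11). Of 21 ubiquitin-conjugating enzymes 4 were higher (19.0%) and 7 lower (33.3%), with Ube2q1 at -0.79 ± 0.09. Of 17 cytosolic and mitochondrial chaperones 2 were higher (11.8%) and 6 lower (35.3%). Subunits of the same TRiC chaperonin went apart: Cct8 and Tcp1 were lower (-0.87 ± 0.08 and -0.90 ± 0.09, adjusted p = 4.35e-11 and 6.52e-10, with another Tcp1 probe at -0.18) and Cct3 higher (0.24 ± 0.05, adjusted p = 0.000259), where Cct3 lay at the median transcript after scaling to the array median.

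Several metabolic lists held more increases than the background, though few of these passed with the detected share as a covariate. Of 58 genes of amino acid catabolism and the urea cycle 19 were higher (32.8%, 1 of them with the covariate) and 13 lower (22.4%). Steps of branched-chain amino acid breakdown differed: Bcat2, the mitochondrial aminotransferase that starts it, ran from 7.82 through 8.12 to 8.59 in Rapa females and from 7.45 through 7.62 to 7.90 in control females (0.51 ± 0.05, adjusted p = 6.3e-10), opposite to Bckdhb above. Bhmt2, a homocysteine methyltransferase, stood at -0.55 ± 0.06 (adjusted p = 3.2e-09). Of 27 genes of glycolysis, gluconeogenesis and glycogen 9 were higher (33.3%) and 4 lower (14.8%). Pcx, pyruvate carboxylase, was higher by 0.51 ± 0.08 (adjusted p = 7.14e-07). Pgm1, which feeds glucose phosphate into and out of glycogen, had 8.47, 8.87 and 9.81 in Rapa and 9.17, 9.76 and 10.27 in control females (-0.86 ± 0.11, adjusted p = 1.4e-08), and kept -0.92 with the detected share as a covariate. In the tricarboxylic acid cycle 6 of 24 were higher (25.0%) and 8 lower (33.3%). Ogdh and Dlst of the oxoglutarate dehydrogenase complex stood at 0.50 ± 0.05 and 0.45 ± 0.08 and the malate dehydrogenase Mdh2 at -0.67 ± 0.08 (adjusted p = 1.66e-09, 5.36e-06 and 1.82e-08).

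Of 12 peroxins, which build peroxisomes, 6 were higher and 4 lower. Pex5, the import receptor for peroxisomal enzymes, ran from 9.73 through 10.12 to 10.32 in Rapa females and from 8.84 through 9.52 to 9.91 in control females (0.56 ± 0.08, adjusted p = 2.52e-07), but its other probes stood at -0.05 and 0.26, and with the detected share as a covariate it did not pass (0.22, adjusted p = 0.163). Pex14, its docking partner, was lower (-0.58 ± 0.09, adjusted p = 1.92e-06), also with the covariate (-0.75, adjusted p = 0.000531). Of 23 genes of glycerolipid synthesis 8 were higher (34.8%) and 4 lower (17.4%). Dgat1, which makes triglyceride, stood at 0.35 ± 0.05, and Cept1 and Pcyt1a, both in the making of phosphatidylcholine, at -0.96 ± 0.09 and -0.81 ± 0.10 (adjusted p = 6.02e-07, 1.03e-10 and 4.14e-08). Of 36 conjugating enzymes 13 were higher (36.1%) and 6 lower. Gstt1, a theta-class glutathione transferase, had 11.57, 12.30 and 12.62 in Rapa and 9.87, 11.43 and 11.98 in control females (0.91 ± 0.16, adjusted p = 8.27e-06). None of these 13 passed with the detected share as a covariate, while 4 of the 6 lower ones did.

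Among 184 solute carriers 34 were higher (18.5%) and 41 lower (22.3%), close to the background. Slco2b1, an uptake carrier for organic anions, ran from 10.88 through 11.38 to 11.93 in Rapa females and from 11.68 through 12.15 to 12.38 in control females (-0.74 ± 0.07, adjusted p = 3.04e-10), and Slc25a3, the mitochondrial phosphate carrier, stood at -1.09 ± 0.11 on its brightest probe and -0.81 on another. Pltp, which transfers phospholipid between lipoproteins, was higher by 0.78 ± 0.13 (adjusted p = 3.12e-06), and Apof, an inhibitor of lipid transfer in plasma, lower at -0.74 ± 0.08 (adjusted p = 3.46e-09). Both passed with the detected share as a covariate. Of 17 transcription factors of the hepatocyte programme 3 were higher (17.6%) and 5 lower (29.4%). Hnf4a was lower (11.06, 11.40 and 11.73 in Rapa, 11.43, 11.83 and 12.27 in control females, -0.40 ± 0.07, adjusted p = 2.18e-05), and Foxa1 higher (0.38 ± 0.07, adjusted p = 1.22e-05). Among nuclear receptors Nr1h3, the oxysterol receptor LXR alpha, had 11.04, 11.35 and 11.56 in Rapa and 10.06, 10.82 and 11.22 in control females (0.52 ± 0.07, adjusted p = 5.6e-08), though its other tested probe stood at 0.03.

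Immediate early genes and coagulation factors held more decreases than the background of 18.5%. Of 23 immediate early genes, which answer growth and stress signals first, 3 were higher and 9 lower (39.1%, median log2 difference -0.23), and 2 of the 9 passed with the detected share as a covariate. Of 23 coagulation factors and inhibitors 1 was higher and 7 lower (30.4%). Decreases were near the background among 27 replication and cell cycle genes (1 higher, 5 lower) and 23 complement components (2 higher, 4 lower). Of 51 cytochrome P450 genes 15 were higher (29.4%) and 7 lower, and none of the 15 passed with the detected share as a covariate.

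**Figure D3:**
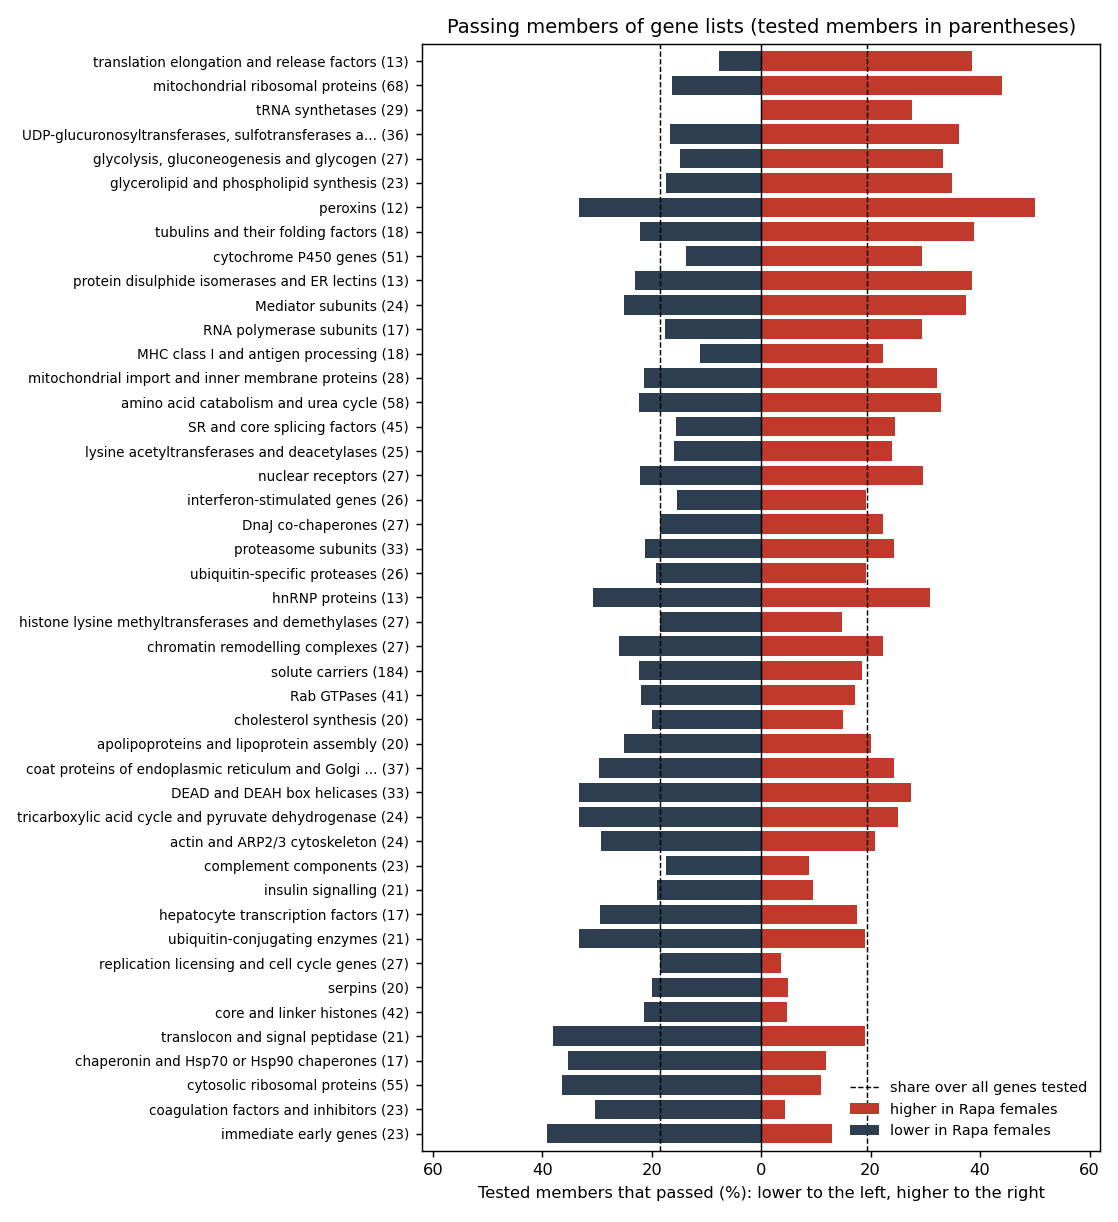
Share of the tested members of each gene list (percent) that passed and were higher in Rapa females (bars to the right) or lower (bars to the left), with the number tested in parentheses and dashed lines at the shares over all 8729 genes (19.4% and 18.5%). The longer bar lies to the right for mitochondrial ribosomal proteins (44.1% higher) and to the left for cytosolic ones (36.4% lower). These shares are without the detected share as a covariate, and most lists have bars on both sides.

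Of the markers of other cell types that the liver holds, those of neutrophils, red blood cells and endothelial cells were lower more often than genes at large. Of 11 tested neutrophil markers 7 were lower and none higher, of 5 erythroid markers 3 and none, of 14 Kupffer cell markers 3 and none, of 16 endothelial markers 5 and 1, of 11 stellate cell markers 2 and none, of 9 T and NK cell markers 2 and none, and of 4 cholangiocyte markers none either way, while 1 of 4 adipocyte and 1 of 3 acinar cell markers was higher. The shares of lower Kupffer, stellate and T and NK cell markers (21.4%, 18.2% and 22.2%) were near the 18.5% of all genes. So were those of platelet markers and of B and plasma cell markers (16.7%, 1 of 6 each, with none higher). The share of lower endothelial markers was 31.2%. The summed log2 signal of the neutrophil markers ran from 10.62 through 12.16 to 15.95 in Rapa females and from 11.05 through 13.75 to 16.57 in control females, and that of the Kupffer cell markers from 13.04 through 13.69 to 15.76 in Rapa females and from 13.27 through 14.03 to 15.93 in control females. That of the erythroid markers had a higher median in Rapa females, with 13.43, 14.22 and 15.41, against 12.89, 13.95 and 15.59 in control females. The ranges overlapped widely. Hepatocyte markers were present throughout, with 2 of 16 higher, 4 lower and summed signals from 17.80 through 17.95 to 18.10 in Rapa and from 17.77 through 17.98 to 18.04 in control females, and no tested probe stood for striated muscle. With the detected share as a covariate, none of the 7 neutrophil, 3 erythroid and 3 Kupffer cell markers passed. Of the 5 lower endothelial markers 1 did. Against the controls F682 to F695 alone, 2 of the 7 neutrophil, all 3 erythroid and 4 of the 5 endothelial markers passed. The part of these cells in the other differences was not tested.

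Several probes of 1 gene did not always give the same answer. Of 2190 genes with more than 1 tested probe, 612 had at least 2 that passed, in 474 of them in a single direction and in 138 in opposite directions. In 89 of the 138 the probe that was higher was the brighter one. Transcript variants that the probes may tell apart were not identified, since probe positions were not used here.

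The widest contrast between probes was in Gjb2, the gap junction protein connexin 26 of hepatocytes. Its brightest probe ran from 10.25 through 10.78 to 11.57 in Rapa females and from 11.24 through 12.11 to 12.88 in control females (-1.20 ± 0.13, adjusted p = 1.31e-09). Another ran from 9.07 through 9.44 to 9.94 in Rapa and from 7.90 through 9.12 to 9.39 in control females (0.45 ± 0.10, adjusted p = 0.000256). A choice of probe thus turned the direction of the gene. For Vegfa, the vascular growth factor, the brighter probe was higher (0.27 ± 0.06, adjusted p = 0.000163) and the dimmer one lower (-1.28 ± 0.12, adjusted p = 3.43e-11), with 7.22, 7.65 and 8.68 in Rapa and 8.30, 8.97 and 9.57 in control females on the dimmer probe. Eef1b2, the exchange factor of elongation factor 1, stood at 0.46 ± 0.07 on its brightest probe and at -1.15 ± 0.10 on another (adjusted p = 1.2e-06 and 2.77e-11). H2-T23, a nonclassical MHC class I gene, gave 0.32 ± 0.06 and -1.16 ± 0.11, Mif4gd, which acts in histone mRNA translation, 0.59 ± 0.11 and -0.92 ± 0.13, and Kif1b, a kinesin, 0.65 ± 0.10 and -0.70 ± 0.08, while its brightest probe gave 0.24 ± 0.08. The negative probe of all 6 genes passed with the detected share as a covariate, and the positive probe did so only for Eef1b2 (0.37, adjusted p = 0.02).

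**Figure D4:**
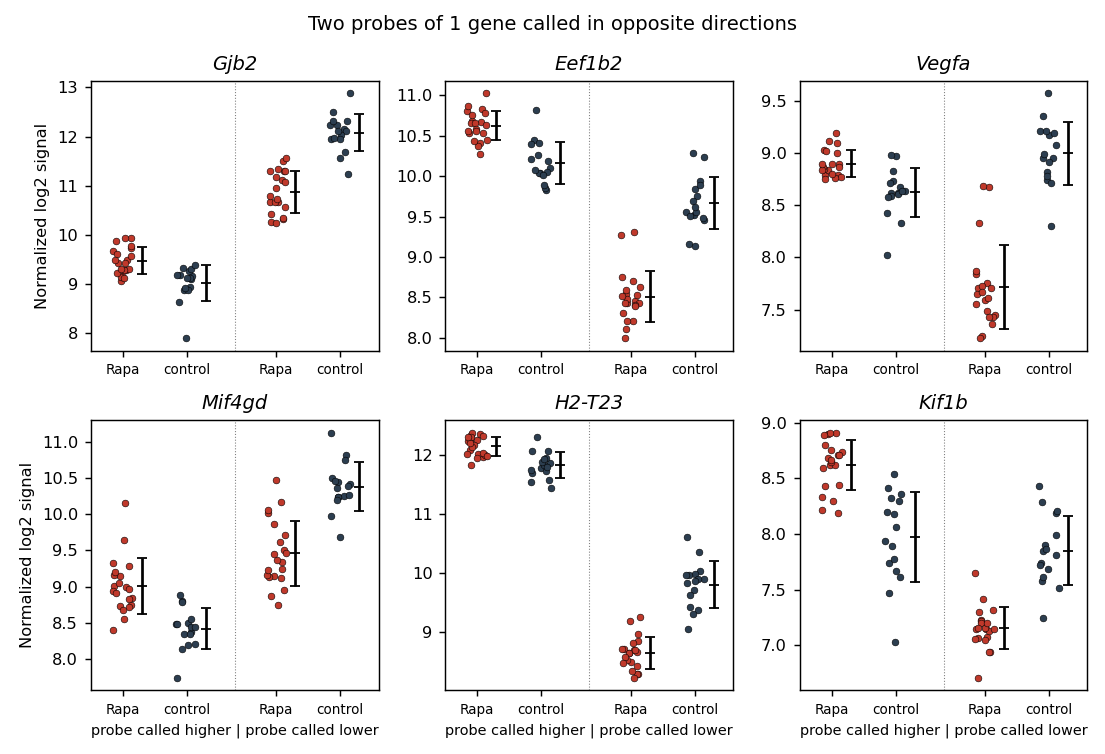
Normalized log2 signals (vertical) on 2 probes of each of Gjb2, Eef1b2, Vegfa, Mif4gd, H2-T23 and Kif1b, with the probe called higher left and the probe called lower right of the dotted line, Rapa females left of control females, 1 point a liver, and mean and SD as bars (n = 21 and 16). The 2 probes of a gene move apart, as for Gjb2 at 0.45 and -1.20.

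The direction of change also varied with the genomic span of the gene. Genes were ranked by span and divided into 5 groups of equal size. In the group of shortest span (median 3.96 kb), 25.1% were higher and 14.5% lower. In the group of longest span (median 104 kb), 11.1% were higher and 21.4% lower. The shares moved in order over the 3 groups between for the genes that were higher (24.6%, 21.0% and 15.1%), and the lower share was highest in the group next to the longest (22.6%). Across 8723 genes Spearman's rho of span and log2 difference was -0.14, a description over genes, which are not independent replicates. Long genes were also dimmer, with a median log2 signal of 7.67 in the longest group and 8.22 in the shortest, and the trend was seen at both levels of signal: among brighter genes 17.8% of the longest and 33.7% of the shortest group were higher, and among dimmer genes 6.51% and 15.0%. Against the controls F651 to F659 the higher shares in the longest and shortest groups were 10.4% and 23.9%, and against F682 to F695 7.45% and 17.1%. Genes that were higher and also passed with the detected share as a covariate made up 3.61% of the shortest group. Their share was 4.59%, 3.89% and 2.98% in the 3 groups between, and lowest in the longest group. The ordered fall from the shortest group was thus not kept. The lower share with the covariate was 5.38% in the shortest group, 8.26% in the group next to the longest and 7.11% in the longest.

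The shares also varied with the signal of the probe. Of 10 groups of transcripts ranked by mean signal, the dimmest had 0.482% higher and 17.8% lower. The seventh had 32.1% and 21.2%, and the brightest 28.3% and 17.2%. Relative to the median transcript, the dimmest group's median log2 difference was -0.10 after quantile normalization and 0.13 after scaling to the array median. That of the brightest group was 0.04 and -0.11. By chromosome, among those compared, the share higher was largest on chromosome 7 (25.8% of 906 transcripts, with 11.8% lower) and smallest on chromosome 13 (12.9% of 395, with 23.8% lower), and on chromosome X 14.0% were higher and 28.1% lower. Genes that lie together on a chromosome can share span, signal and family, so these shares are given as counts and not as a test.

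**Figure D5:**
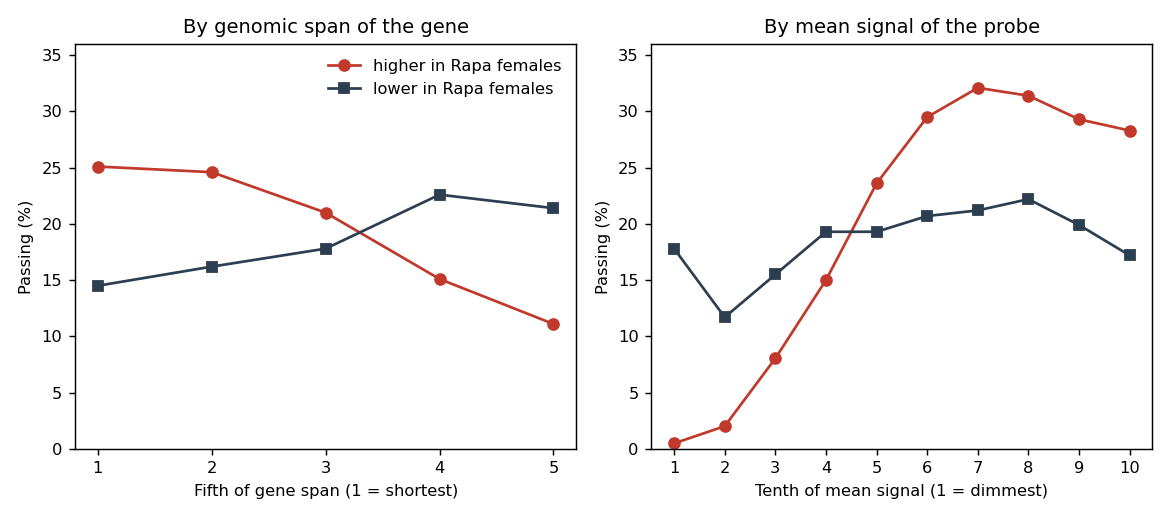
Share of genes or transcripts that passed (percent, vertical), higher in Rapa females (circles) or lower (squares), in 5 groups by genomic span of the gene (left) and 10 groups by mean signal of the probe (right). The share that was higher was 25.1% in the shortest and 11.1% in the longest group, and 0.482% in the dimmest group. These shares are without the detected share as a covariate.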

How the data were processed

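Labelled cRNA from total liver RNA was hybridised to 1-colour Illumina MouseRef-8 v2 arrays. The table deposited by the authors holds, for each of 25697 probes and each array, a raw average signal intensity and a detection score (higher for signals further above background on all 69 arrays). A second deposited table holds processed values on the log2 scale, which correlated with the values used here at r of at least 0.999918 over the female arrays. Arrays were scanned on the iScan system and signals extracted with GenomeStudio, per the study's methods.

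Signals of all 69 arrays were quantile normalized and taken to log2. The 12442 probes detected (detection p under 0.05) on at least 13 of these 69 arrays were tested. Rapa and control females were compared in R 4.3.3 with limma 3.58.1 (lmFit and eBayes on the 37 arrays, without covariates), with Benjamini-Hochberg adjustment over all tested probes. A probe passed at thresholds of 0.05 for the adjusted p and 15% for the change. All adjusted p-values of single probes come from limma. Array measures were compared by two-sided permutation tests with 100000 resamples (scipy 1.17.1). Each replicate is a separate mouse with 1 array, and the number of arrays limits the precision.

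A gene was represented by its brightest tested probe with 1 symbol (23978 probes of the array have 1, 1719 none). The rule for named genes took the 12 genes with the highest and the 12 with the lowest statistic, the 8 largest passing differences each way, up to 2 passing members in each direction of each list by adjusted p, and the 6 genes whose passing probes differed most in opposite directions. Not all of these are printed. Other named genes were picked after their values were seen. The comparison, the members and the lists were chosen with earlier results of these data known. Probe symbols were updated by gene identifier, and spans and promoters are from RefSeq (GRCm38.p6). Genes of some regions are not reported here. In data simulated for this comparison on 12442 probes, 95 of 100 changes of 1.5-fold and 100 of 100 of 2-fold were recovered, with 6 false calls. The simulated probes varied independently and held no difference in detected share between the groups. These counts therefore give no error rate for data with such a difference. Alternatives were other scalings, background corrections, filters, thresholds, control subsets, covariates, array weights, a replicate block, plain pairwise tests and a model of all 69 arrays.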

Additional observations from a re-analysis of the deposited data

How the results depend on the processing

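Scaling set the balance of directions. With each array scaled to the median of all probes, 76 transcripts were higher and 5646 lower in Rapa females (1.33% of passing ones higher), 463 by over 2-fold. With scaling to the median of probes detected on all female arrays, 7698 passed, 6228 higher and 1470 lower (80.9% higher). Without scaling 43 were higher and 5883 lower (0.726% higher), 506 passed by over 2-fold and 39 separated the groups. Under median scaling the log2 differences changed sign for Trim28 (-0.02), Rbbp5 (-0.06), Dctn3 (-0.22), Sars (-0.02), Cct3 (-0.20), Vegfa (-0.15), H2-T23 (-0.04) and the brightest Kif1b probe (-0.20), which is neither of its opposed probes. Without scaling they did so for Fam234a (-0.01), Trim28 (-0.05), Rbbp5 (-0.09), Dctn3 (-0.25), Srp68 (-0.02), Sars (-0.05), Aimp2 (-0.02), Tufm (-0.02), Cct3 (-0.23), Dlst (-0.01), Vegfa (-0.18), Eef1b2 (-0.01), H2-T23 (-0.07) and the same Kif1b probe (-0.23). These values are to be read against the shift of all transcripts, -0.20 and -0.23.

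Background correction by neqc gave 3744 higher transcripts and 456 past 2-fold, and limiting the test to probes detected on all female arrays gave 1395 lower ones. Against control females F651 to F659 alone 290 passed by over 2-fold and against F682 to F695 alone 63. With the detected share as a covariate 1638 passed, 590 higher and 1048 lower, 19 of them by over 2-fold. The cause was not tested. No minimum change gave 3978 higher transcripts. A minimum of 1.5-fold gave 746 passing, 157 higher and 589 lower (21.0% higher). The other 85 counts stayed within 1.5 times the main value, and of the named genes' log2 differences 1804 kept their direction and their side of the thresholds, while 138 kept the direction only. A fit with the replicate block, pairing Rapa and control females of the same number, gave 4650 passing transcripts. The same-number correlations of 16 pairs ran from -0.52 to 0.273 (median -0.107), and 0 control arrays correlated best with their own number, so the numbers do not pair the animals. Signals near background limit what can be measured: 126 lower transcripts were detected on no Rapa array.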
